A study of Mus musculus with 6 samples.

Results

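A list of 35 genes of the DNA replication machinery, chosen by name with earlier results of these data known, was followed through tumor-infiltrating cells of mice given a cytokine fusion. The 35 genes were all found among the 34187 gene features of the count matrices. They comprise 11 genes of helicase loading and activation (Mcm2 to Mcm7, Cdc6, Cdt1, Cdc45, Gins1, Gins2), 12 of the sliding clamp, its loader, the polymerases and single-strand binding (Pcna, Pclaf, Rfc2 to Rfc5, Pola1, Prim1, Pold1, Pole, Rpa1, Rpa2), 2 of flap and nick processing (Fen1, Lig1), 5 of nucleotide supply (Rrm1, Rrm2, Tyms, Tk1, Dut) and 5 of chromatin and other steps (Uhrf1, Chaf1a, Chaf1b, Slbp, Ung). They are called the members below.

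Male and female C57BL/6 mice carried subcutaneous pancreatic tumors of the line 6694c2vTRP1, derived from a KPC mouse model of pancreatic ductal adenocarcinoma. Mice were injected intraperitoneally every other day from day 8, 2 times in all, with PBS, with mono-IL10 (26 µg per mouse) or with IL10/2-Trikine (30.6 µg per mouse), and tumors were taken on day 14. CD45+ cells were enriched on beads, the cells of 5 mice per treatment were marked with hashtags and pooled, and each treatment became 1 5′ single-cell library, so treatment and library cannot be told apart and p-values measure the spread between mice of the same library. All groups carried the same transplanted line and no other genotype, and no untreated group was analysed here.

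Replication begins when the MCM2-7 ring is loaded on origins by CDC6 and CDT1 and is switched on by CDC45 and the GINS complex. The clamp PCNA, set on DNA by replication factor C, holds the polymerases, FEN1 and LIG1 join the lagging-strand fragments, and ribonucleotide reductase, thymidylate synthase, thymidine kinase and dUTPase supply the nucleotides. Most of these genes are transcribed by E2F factors as cells pass from G1 into S phase, so they are widely used to mark proliferating lymphocytes, and IL-2 is a growth factor of T cells and NK cells.

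The members' promoters are shown because many members moved together. Of the 35 members, 30 had a promoter in the RefSeq table of build GRCm38.p6 (250 bases before to 50 after the start), which is not the GRCm39 build of the counts, and Gins1, Gins2, Mcm4, Pole and Rfc2 had none there. An E2F motif, searched on both strands in the forms TTTCGCGC, TTTGGCGC, TTTCCCGC and TTTGCCGC, was found in the promoters of 12 of these 30 members (40%) and of 704 of 27025 genes (2.6%). The box CCAAT lay in 18 members (60%) against 41.1% of genes, and the CHR motif TTTGAA in 3 members (10%) against 20.2%. Of the 14 members that passed the test in T cells in any comparison and had a promoter, 7 held an E2F form. A window of each of these 7 is printed 5′ to 3′ in the direction of the gene, with the motif in capitals, read forward or as its reverse complement, and in Mcm5 a second form on the other strand overlaps the one in capitals. A motif is a match of letters only.
Cdc6, chr11:98907997-98908036, plus strand: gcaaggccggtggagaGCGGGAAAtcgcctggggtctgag
Lig1, chr7:13278836-13278859, plus strand: cctcccgccaaagtgcGCGCGAAA
Mcm5, chr8:75109340-75109379, plus strand: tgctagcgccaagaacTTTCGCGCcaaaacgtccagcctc
Mcm7, chr5:138172025-138172064, minus strand: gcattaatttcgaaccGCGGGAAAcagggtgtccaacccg
Pclaf, chr9:65890302-65890325, plus strand: caagcgcttggagcgcGCGGGAAA
Pola1, chrX:93632270-93632309, minus strand: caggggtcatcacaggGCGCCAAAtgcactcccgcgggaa
Uhrf1, chr17:56304112-56304151, plus strand: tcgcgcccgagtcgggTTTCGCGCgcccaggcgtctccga

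The libraries held 30528 to 55504 barcodes and 364814102 to 515236552 UMIs, and after filtering 24060 to 46104 cells remained. The T and NK clusters are the authors' annotation, 516, 843 and 725 cells for PBS, mono-IL10 and IL10/2-Trikine. Of these, 348, 635 and 400 had a single mouse's hashtag. Between 408 and 700 barcodes occurred in 2 libraries, and 8.5 to 12.2% of cells held hashtags of several mice and were left out, while droplets with 2 cells of the same mouse could not be seen. Cells without a hashtag call were left out of all values per mouse as well. They were 7007 of 34518 in PBS, 4309 of 24060 in mono-IL10 and 14808 of 46104 in IL10/2-Trikine, so this loss was unequal. Macrophage or monocyte-like cells and tumor epithelial-like cells were outside the annotation and were clustered and named here from markers, without using the members. The tumor cells came through the CD45 enrichment, 4819 to 10485 of them per treatment. Median UMIs per cell differed between the libraries. For PBS, mono-IL10 and IL10/2-Trikine they were 2712, 3722 and 2675 in T cells, 5154, 6236 and 2789 in macrophages and 25103, 35027 and 10055 in tumor cells. Levels of the members are therefore given as UMIs per 10000 UMIs with every cell thinned to 1500 UMIs, except where stated. Levels of marker lists and levels within macrophage clusters were taken from all UMIs. Tests were run on the summed counts of each mouse. Thinning was 1 random draw per population, so overlaps between mice can turn on single UMIs. The lowest PBS mouse of the same 96 non-cycling NK cells was at 7.18 in 1 draw and 5.13 in another.

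T cells here are all annotated clusters outside the NK clusters, cycling clusters included. One of them, Cycling_T, was not made up alike in the 3 libraries. Its cells with more UMIs of an NK list (Ncr1, Klrb1c, Klre1, Tyrobp and Fcer1g, the last pair also expressed by macrophages) than of a T cell receptor list (Cd3e, Cd3d, Cd3g, Trac, Trbc2), called NK-like below, were 12 of 43 (27.9%) in PBS, 14 of 99 (14.1%) in mono-IL10 and 59 of 94 (62.8%) in IL10/2-Trikine. Over all T cells the NK list stood at 12.3, 8.52 and 23.7 UMIs per 10000 and the T list at 27.5, 35.6 and 18.3 in the same order, so the calls and summed levels of T cells are also given without these cells. The NK list was higher under IL10/2-Trikine outside the cycling clusters too, as given with those cells, and its part in the results was not tested there. In NK cells the T list was at 1.9 to 2.11 UMIs per 10000 and the NK list at 53.1 to 68.5.

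The members were highest in the cycling clusters and, of the populations compared between treatments, lowest in macrophages. The cycling clusters are the authors' annotation, made from these same counts. For their T cell clustering the authors name only T cell receptor and immunoglobulin variable genes as left out. Levels inside and outside the cycling clusters, and overlap within them, are thus not independent of how cells were sorted. The members' summed level was higher in T cells and NK cells under IL10/2-Trikine and lower in macrophages under mono-IL10, while the treatments overlapped in the cycling clusters and in non-cycling NK cells, and IL10/2-Trikine overlapped with PBS in macrophages. In T cells their summed level was 17.7, 17.8, 16.2, 13.8 and 24.9 UMIs per 10000 in the 5 PBS mice, 21.8, 18.7, 18.5, 16.2 and 19.2 in the mono-IL10 mice, and 36, 36.9, 37.5, 48.2 and 45.5 in the IL10/2-Trikine mice. Every IL10/2-Trikine mouse lay above every mouse of the other groups, which overlapped. Without the NK-like cells the 3 groups spanned 12.2 to 19.7, 16.4 to 21.6 and 27 to 34.7, again with no overlap between IL10/2-Trikine and the others.

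In NK cells the sum was 11.3, 11.9, 14.7, 8.39 and 11 in PBS mice, 10.5, 10.4, 7.64 and 14.5 in 4 mono-IL10 mice (the third, with 9 NK cells, was left out), and 21.7, 18.7, 22.5, 21.9 and 16.6 in IL10/2-Trikine mice. Here too the IL10/2-Trikine mice stood above all others. In macrophages it was 6.79 to 10.7 in PBS, 4.9 to 5.79 in mono-IL10 and 5.12 to 7.31 in IL10/2-Trikine, so PBS and mono-IL10 did not overlap while IL10/2-Trikine overlapped both. Tumor cells ranged over 15.5 to 16.8, 13 to 17 and 13.4 to 16.2, and the groups overlapped. For scale, naive T cell clusters held 6.67 to 12.4 UMIs per 10000 in PBS and 7.67 to 10.2 in mono-IL10.

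**Figure D1:**
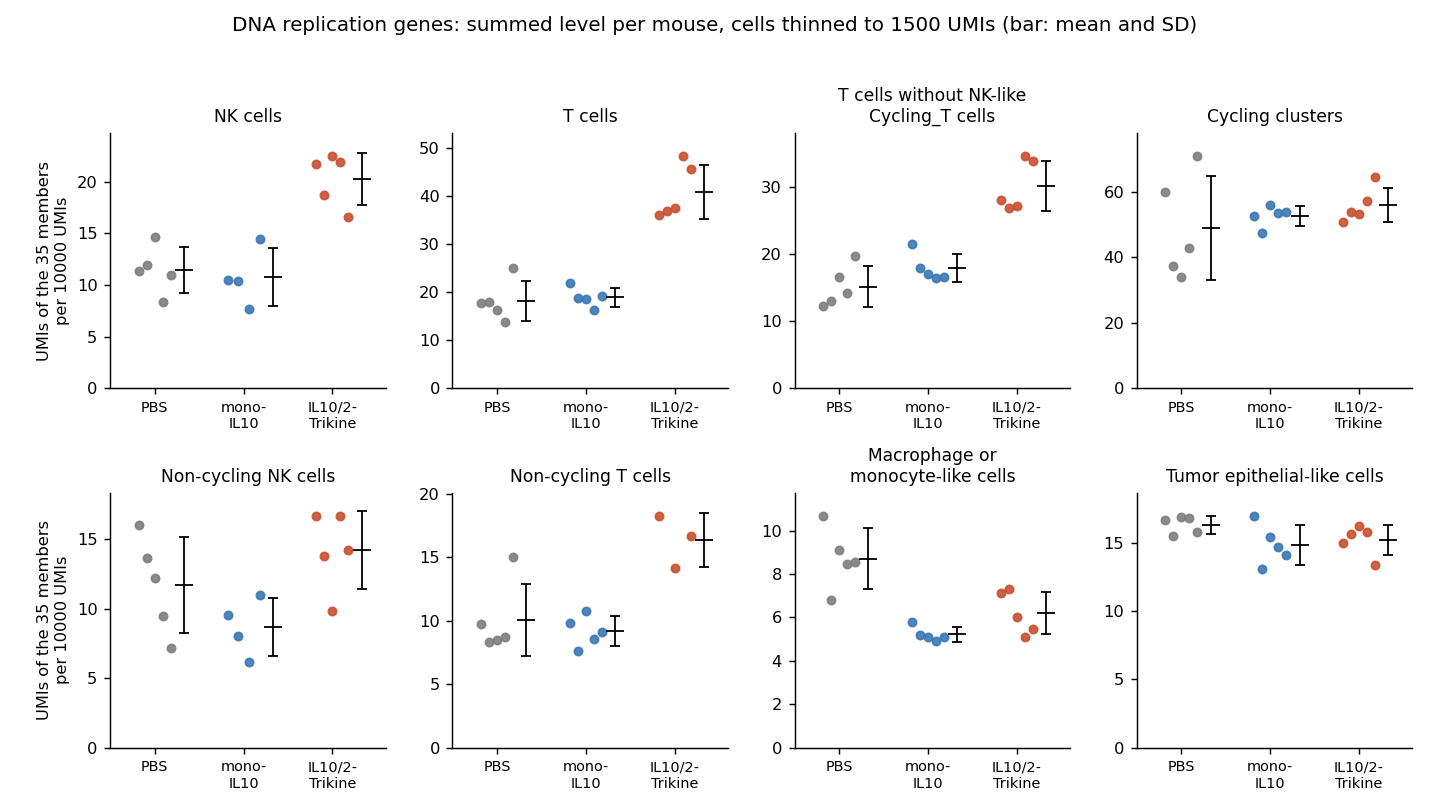
Summed level of the 35 members in UMIs per 10000 UMIs (y axis, from 0, a scale for each panel) by treatment (x axis) in 8 cell populations, with 1 point per mouse and the mean and SD as a bar. The IL10/2-Trikine mice sit at 36 to 48.2 in T cells and 16.6 to 22.5 in NK cells, above every other mouse, while the mono-IL10 mice sit at 4.9 to 5.79 in macrophages, below every PBS mouse.

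With the NK-like Cycling_T cells counted as T cells, as the annotation has them, more members passed the test in T cells under IL10/2-Trikine than in any other lymphocyte comparison. With those cells counted as NK cells the order turned. Against PBS and mono-IL10, 3 and 3 members were then higher in T cells (0.37 and 0.582% of all genes). In NK cells 5 and 8 were higher (0.966 and 0.696% of all genes). Against PBS, 11 of 35 were higher and 0 lower (edgeR, adjusted p under 0.05), where 1.14% of the 9725 genes tested were higher, and the median log2 difference of the members was 0.83 against -0.07 over all genes. Against mono-IL10, 9 of 35 were higher and 0 lower, with 1.26% of all genes higher and medians of 0.62 and -0.1. The 35 log2 differences were all above 0 against PBS and 33 of 35 against mono-IL10. These comparisons share the IL10/2-Trikine mice, and both treated groups are set against the same PBS mice, so no 2 of the 3 comparisons are independent.

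Among the helicase genes, Cdc6, a loader of the MCM ring, was 2.13 ± 0.51 (log2 difference ± SE) higher under IL10/2-Trikine than under PBS (edgeR adjusted p = 0.0042), and Mcm7, a ring subunit, 1.27 ± 0.3 higher (adjusted p = 0.0042). Mcm5, another subunit, was at 0.8, 1.0, 0.523, 0.247 and 0.494 UMIs per 10000 in PBS mice, 0.699, 0.693, 0.513, 0.375 and 0.339 in mono-IL10 mice and 1.33, 1.54, 0.702, 2.35 and 1.33 in IL10/2-Trikine mice. Only the third IL10/2-Trikine mouse fell within the range of PBS, and Mcm5 passed the test against mono-IL10 (log2 difference 1.05 ± 0.25, edgeR adjusted p = 0.0026) but not against PBS. Gins2, a GINS subunit, was at 0 in 3 PBS, 2 mono-IL10 and 2 IL10/2-Trikine mice and at 0.494 or below in every other, so its groups overlapped. Mcm2 did not pass, at 0.32 ± 0.32 against PBS (95% interval -0.31 to 0.96).

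Of the clamp genes, Pclaf, whose product binds PCNA, had the smallest p of all members against PBS. It was at 0.4, 1.67, 1.31, 0.988 and 2.22 UMIs per 10000 in PBS mice, 2.15, 1.82, 2.05, 1.21 and 1.81 in mono-IL10 mice, and 4.5, 4.21, 5.61, 6.67 and 5.67 in IL10/2-Trikine mice. Each IL10/2-Trikine mouse lay above every other mouse, with log2 differences of 1.49 ± 0.18 from PBS (edgeR adjusted p = 1.87e-08) and 0.82 ± 0.16 from mono-IL10 (adjusted p = 0.000327).

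Pcna, the clamp itself, was at 2.27, 1.83, 2.22, 2.47 and 2.47 in PBS mice, 2.2, 1.47, 1.79, 1.92 and 1.69 in mono-IL10 mice and 3.0, 3.38, 2.11, 6.27 and 6.17 in IL10/2-Trikine mice. The third IL10/2-Trikine mouse lay among the controls and the other 4 above them. Pcna was 0.82 ± 0.17 higher than in PBS (edgeR adjusted p = 0.000753) and 0.71 ± 0.16 higher than in mono-IL10 (adjusted p = 0.0011). Pola1, the catalytic subunit of the polymerase that starts new strands, was 0.9 ± 0.27 higher than in PBS (edgeR adjusted p = 0.045), while Pold1 (0.38 ± 0.63, interval -0.86 to 1.61) did not pass.

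In flap and nick processing, the flap nuclease gene Fen1 rose by 1.51 ± 0.4 over PBS (edgeR adjusted p = 0.012) and was 0.93 ± 0.33 above mono-IL10 without passing (adjusted p = 0.092). The ligase gene Lig1 was at 1.2, 1.0, 0.915, 0.576 and 1.23 in PBS mice, 0.968, 1.21, 0.769, 0.625 and 1.24 in mono-IL10 mice and 2.0, 1.33, 2.11, 2.35 and 2.0 in IL10/2-Trikine mice. All IL10/2-Trikine mice were above all others at equal depth, the lowest at 1.33 against 1.24, a gap that rests on 1 draw of the thinning. In the summed counts Lig1 passed only against mono-IL10 (0.78 ± 0.22, edgeR adjusted p = 0.019) and stood at 0.4 ± 0.23 against PBS (interval -0.05 to 0.86).

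Both ribonucleotide reductase genes rose. Rrm2, the small subunit of ribonucleotide reductase, was at 0.533, 0.167, 0.392, 0.329 and 0.247 in PBS mice, 0.323, 0.173, 0, 0.25 and 0.226 in mono-IL10 mice and 1.83, 1.85, 1.75, 2.75 and 0.667 in IL10/2-Trikine mice, with no overlap. The log2 differences were 1.8 ± 0.27 from PBS (edgeR adjusted p = 8.15e-07) and 1.59 ± 0.24 from mono-IL10 (adjusted p = 2.09e-07). Rrm1, the large subunit, rose by 0.97 ± 0.24 and 1.1 ± 0.22 (edgeR adjusted p = 0.0059 and 0.000179).

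Dut, the dUTPase gene, was at 2.13, 1.67, 0.915, 1.07 and 2.47 in PBS mice, 2.37, 1.99, 2.31, 1.42 and 3.39 in mono-IL10 mice and 1.5, 2.46, 2.46, 5.1 and 3.83 in IL10/2-Trikine mice, and all 3 groups overlapped. It passed against PBS (0.84 ± 0.19, edgeR adjusted p = 0.0018) and stood at 0.1 ± 0.17 against mono-IL10 (interval -0.22 to 0.43). Tyms, thymidylate synthase, ranged from 0.0823 to 0.267 in PBS, 0 to 0.678 in mono-IL10 and 0 to 0.833 in IL10/2-Trikine, overlapped throughout and passed in no comparison of T cells.

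The genes of chromatin and other steps that rose were Uhrf1, which guides maintenance DNA methylation, Slbp, which binds histone mRNA, and Chaf1a, a subunit of chromatin assembly factor 1. Uhrf1 was at 0.267, 0.5, 0.131, 0.247 and 1.23 in PBS mice, 0.43, 0.346, 0.513, 0.375 and 0.339 in mono-IL10 mice and 1.67, 1.03, 1.05, 1.18 and 2.33 in IL10/2-Trikine mice. The fifth PBS mouse reached into the IL10/2-Trikine range, and Uhrf1 was 1.29 ± 0.3 above PBS (edgeR adjusted p = 0.0035) and 1.14 ± 0.26 above mono-IL10 (adjusted p = 0.002). Slbp was 0.97 ± 0.2 and 0.64 ± 0.18 higher (edgeR adjusted p = 0.000876 and 0.02), and Chaf1a passed against mono-IL10 alone (1.83 ± 0.52, adjusted p = 0.018).

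**Figure D2:**
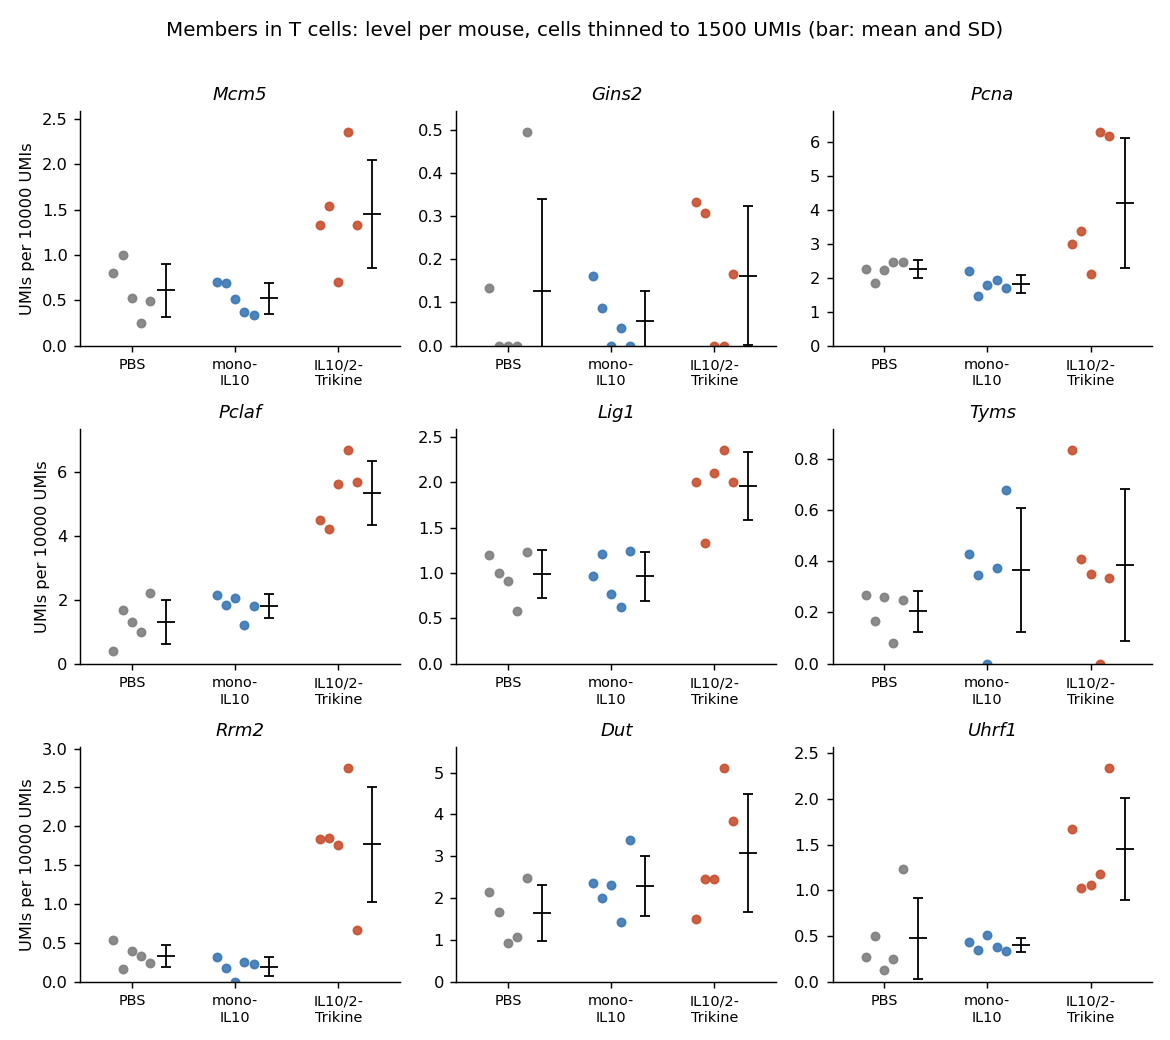
Levels of 9 members in T cells in UMIs per 10000 UMIs (y axis, from 0, a scale for each panel) by treatment (x axis), with 1 point per mouse and the mean and SD as a bar. Pclaf, Lig1 and Rrm2 in the IL10/2-Trikine mice lie above every mouse of both other groups, while Gins2, Tyms and Dut overlap. The T cells shown include the NK-like Cycling_T cells. Without those cells Rrm2 passed the test against both groups, Pclaf against PBS alone and Lig1 against neither.

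Leaving out the NK-like Cycling_T cells lowered these counts. Against PBS 3 of 35 members were then higher (0.37% of all genes), Pclaf by 1.0 ± 0.23, Rrm2 by 1.43 ± 0.38 and Uhrf1 by 1.42 ± 0.36 (edgeR adjusted p = 0.0032, 0.017 and 0.011), and against mono-IL10 3 were (0.582%), Mcm5 by 1.12 ± 0.3, Rrm2 by 1.14 ± 0.33 and Uhrf1 by 1.12 ± 0.31 (adjusted p = 0.0093, 0.024 and 0.015). The other members called above no longer passed. Against PBS, Cdc6 stood at 1.29 ± 0.7, Mcm7 at 0.87 ± 0.39, Pcna at 0.52 ± 0.21, Pola1 at 0.8 ± 0.34, Fen1 at 1.46 ± 0.47, Dut at 0.53 ± 0.23, Rrm1 at 0.67 ± 0.3 and Slbp at 0.81 ± 0.25. Against mono-IL10, Pclaf stood at 0.19 ± 0.2 (edgeR adjusted p = 0.743) where it was 0.82 with them, Pcna stood at 0.4 ± 0.2, Lig1 at 0.5 ± 0.27, Rrm1 at 0.67 ± 0.28, Slbp at 0.51 ± 0.23 and Chaf1a at 1.8 ± 0.62. Without these cells Lig1 was 0.19 ± 0.28 above PBS (adjusted p = 0.874). The median log2 difference of the members was then 0.53 and 0.31. With these cells left out and all others thinned to 1500 UMIs, 1 and 0 members passed, and no share of all genes is at hand for this setting. Thinning alone kept 9 and 9 higher members (1.01 and 1.4% of all genes), 7 and 6 of them shared with the counts above, and added Cdc45, a helicase activator, in both.

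Mono-IL10 against PBS gave 2 higher members of 35 in T cells (0.463% of all genes), Dut by 0.74 ± 0.17 and Pclaf by 0.66 ± 0.17 (edgeR adjusted p = 0.0091 and 0.044). Both groups overlapped for both genes in the thinned values given above, and 0 members passed after thinning, where no share of all genes is at hand. The count became 0 without PBS mouse 3 and 1 without any 1 of PBS mice 1, 2 and 4, mono-IL10 mice 1 to 3 or IL10/2-Trikine mice 2, 4 and 5. Without the NK-like cells the same 2 members passed (0.54% of all genes), Dut by 0.7 ± 0.19 and Pclaf by 0.8 ± 0.19 (edgeR adjusted p = 0.025 and 0.0095). Rrm1 stood at -0.13 ± 0.23 (interval -0.57 to 0.32).

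The T cell difference came with a different share of cells in the cycling clusters. Of T cells, 18 to 30% lay in Cycling_T or Cycling_Treg in PBS mice, 17.5 to 29.8% in mono-IL10 mice and 52.5 to 64.7% in IL10/2-Trikine mice. Without the NK-like cells these shares were 14.6 to 22.2%, 14.8 to 28.1% and 29.6 to 40.9%, and IL10/2-Trikine still did not overlap with the others. Among cells outside those clusters the members summed to 9.76, 8.33, 8.5, 8.72 and 15 UMIs per 10000 in PBS mice, 9.81, 7.6, 10.8, 8.59 and 9.09 in mono-IL10 mice and 18.2, 14.1 and 16.7 in the 3 IL10/2-Trikine mice with at least 10 such cells. The fifth PBS mouse, with 20 cells, stood apart from its group and within the IL10/2-Trikine range. In the same non-cycling cells the NK list stood at 11.7, 7.53 and 20.8 UMIs per 10000 and the T list at 30.2, 36.9 and 25.3 for PBS, mono-IL10 and IL10/2-Trikine, and the part of these NK markers in the result was not tested.

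In these non-cycling T cells 27 of 35 members were tested and Pclaf passed, higher than in PBS by 3.2 ± 0.93 (edgeR adjusted p = 0.044, interval 1.38 to 5.03, where 0.424% of all genes were higher) and than in mono-IL10 by 2.54 ± 0.78 (adjusted p = 0.043, 0.481% of all genes). This rests on 3, 11 and 10 UMIs of Pclaf in all, and at equal depth it was at 0 in every PBS mouse, at 0.23 and 0.0505 in 2 mono-IL10 mice and 0 in the other 3, and at 1.4, 0 and 0.37 in IL10/2-Trikine mice. Both calls were lost without the filter on low counts and with at least 20 cells per mouse. With filterByExpr and after thinning Pclaf did not enter the test, and DESeq2 gave it no adjusted p. The median log2 difference over all genes was -0.21 and -0.27 in these comparisons and that of the members 0.61 and 1.04. Most of the IL10/2-Trikine Pclaf signal stood in 1 mouse, and the groups overlapped. In mono-IL10 against PBS 0 members passed (0.698% of all genes passed in either direction, 5 members at an unadjusted p under 0.05, and 0 with DESeq2, which gave 7 of the 27 an adjusted p). Cdc45, Cdc6, Chaf1b, Gins1, Gins2, Pole, Rrm2 and Ung, with 0 to 14 UMIs each over all mice, were below the count limit of a mean of 1 per mouse.

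Within the cycling clusters themselves (Cycling_T, Cycling_NK and Cycling_Treg pooled) the treatments overlapped. The members summed to 60, 37.2, 33.8, 42.9 and 70.8 UMIs per 10000 in PBS mice, 52.5, 47.5, 56, 53.6 and 53.7 in mono-IL10 mice and 50.8, 53.9, 53.3, 57.1 and 64.5 in IL10/2-Trikine mice, from 5 to 47 cells per mouse. PBS was the most scattered group and held both the lowest and the highest mouse. The NK list stood at 14.4, 14.4 and 31 UMIs per 10000 in these cells and the T list at 22, 29.7 and 11.7 for PBS, mono-IL10 and IL10/2-Trikine, and the calls given next were lost without the NK-like cells.

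Of the 35 members in the cycling clusters, 1 was higher under IL10/2-Trikine than under PBS (0.587% of all genes), namely Pclaf by 0.64 ± 0.18 (edgeR adjusted p = 0.037). At equal depth Pclaf was at 5.19, 5.0, 4.1, 7.08 and 6.67 in PBS mice, 8.07, 6.67, 10.7, 6.44 and 7.72 in mono-IL10 mice and 6.39, 7.66, 7.0, 10.4 and 7.14 in IL10/2-Trikine mice, so the groups overlapped. Under mono-IL10 1 member was higher than under PBS (0.244% of all genes), Dut by 0.77 ± 0.2 (edgeR adjusted p = 0.026). Dut was at 2.22, 2.78, 2.05, 2.92 and 4.17 in PBS mice, 4.21, 4.35, 8.0, 3.68 and 7.37 in mono-IL10 mice and 4.72, 3.69, 5.33, 3.33 and 5.48 in IL10/2-Trikine mice, with the mono-IL10 mice above 4 of the 5 PBS mice.

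Between IL10/2-Trikine and mono-IL10 0 members passed in the cycling clusters (edgeR, 1.5% of all genes in either direction, 4 members at an unadjusted p under 0.05, and 0 with DESeq2, which gave 30 of the 35 an adjusted p). The median log2 difference of the members was 0.08. Lig1 and Mcm4 did not pass against PBS, at -0.01 ± 0.25 (interval -0.51 to 0.48) and 0.02 ± 0.3 (interval -0.57 to 0.61).

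NK cells, cycling ones included, numbered 99, 180 and 219. Of 33 members tested, 2 were higher under IL10/2-Trikine than under PBS (1.03% of all genes) and 2 than under mono-IL10 (0.363%), with median log2 differences of 0.89 and 0.65 against 0.1 and -0.03 over all genes. Cdc6 and Ung, with 8 and 12 UMIs over all mice, were below the count limit. In mono-IL10 against PBS 0 passed (edgeR, 0.422% of all genes in either direction, 2 members at an unadjusted p under 0.05), and DESeq2 gave no member an adjusted p.

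Pclaf was the member that passed in both. In NK cells it was at 0, 0, 0.333, 0 and 0.476 UMIs per 10000 in PBS mice, 0.513, 0, 0.121 and 0 in mono-IL10 mice and 0.741, 1.26, 0.741, 1.51 and 0.718 in IL10/2-Trikine mice. Every IL10/2-Trikine mouse was above every other, by log2 differences of 2.78 ± 0.45 (edgeR adjusted p = 1.49e-06) and 2.18 ± 0.33 (adjusted p = 2.05e-07). Mcm4, a ring subunit, was 1.58 ± 0.44 above PBS (edgeR adjusted p = 0.03) and Uhrf1 1.56 ± 0.42 above mono-IL10 (adjusted p = 0.029). DESeq2 gave no adjusted p to these 3 members and only to 4 and 2 of the 33 members in all, of which 0 passed, so it gives no check of the calls. Its own estimates were 2.73 ± 0.6 and 2.31 ± 0.43 for Pclaf, 1.55 ± 0.51 for Mcm4 and 1.66 ± 0.5 for Uhrf1. Mcm4 was lost with at least 20 cells per mouse and after thinning, and Uhrf1 after thinning and with no filter on low counts. The count of 2 against PBS became 1 without PBS mouse 4 or 5 or IL10/2-Trikine mouse 1 or 4, and that against mono-IL10 became 1 without mono-IL10 mouse 1 or 4 or IL10/2-Trikine mouse 2, 3, 4 or 5.

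Uhrf1 in NK cells was at 0, 0, 0.667, 0 and 0.476 in PBS mice, 0.128, 0.526, 0.242 and 0.19 in mono-IL10 mice and 0.247, 0.676, 0.494, 0.86 and 0.308 in IL10/2-Trikine mice, overlapping with both. Dut was at 0.667, 0.833, 0.667, 0.43 and 1.43 in PBS mice, 0.641, 1.23, 1.09 and 2.29 in mono-IL10 mice and 2.22, 2.51, 1.98, 2.58 and 1.33 in IL10/2-Trikine mice, and it did not pass against PBS in these cells, while it passed after thinning and with the NK-like Cycling_T cells added. Pcna was at 2.0, 1.11, 1.67, 1.29 and 1.9 in PBS mice, 1.03, 0.877, 1.09 and 2.1 in mono-IL10 mice and 1.48, 2.32, 3.21, 2.15 and 1.33 in IL10/2-Trikine mice. Both genes overlapped between the groups.

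Mcm5 in NK cells was at 0 to 0.476 in PBS, 0 to 0.351 in mono-IL10 and 0.247 to 0.513 in 4 IL10/2-Trikine mice, with the first IL10/2-Trikine mouse apart at 1.73. Lig1 spanned 0 to 1.39, 0.351 to 0.641 and 0.247 to 1.23, and it was 0.76 ± 0.34 above PBS without passing. Rrm2 was at 0 in 4 of 5 PBS mice, all 4 mono-IL10 mice and 1 IL10/2-Trikine mouse, and at 0.193 to 0.645 in the other 4 IL10/2-Trikine mice. Tyms and Gins2 stayed at 0.333 or below in every mouse.

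With the NK-like Cycling_T cells added to the NK cells, 5 members were higher than in PBS (0.966% of all genes: Dut, Mcm4, Pcna, Rrm1, Rrm2) and 8 higher than in mono-IL10 (0.696%: Mcm3, Mcm6, Pclaf, Pcna, Pola1, Rrm1, Rrm2, Uhrf1). Pclaf no longer passed against PBS there. In mono-IL10 against PBS 0 passed again (0.483% of all genes in either direction). The summed level was then 11.3 to 20.6 in PBS, 9.56 to 17.4 in mono-IL10 and 22 to 29.5 in IL10/2-Trikine, with no overlap of IL10/2-Trikine with the others.

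Of NK cells, 0 to 10% lay in Cycling_NK in PBS mice, 1.82 to 11.4% in mono-IL10 mice and 9.23 to 29.6% in IL10/2-Trikine mice. Outside it, the members summed to 7.18 to 16, 6.17 to 11 and 9.82 to 16.7 UMIs per 10000, and all groups overlapped. Among 28 members tested in these non-cycling NK cells, Pclaf was higher than in PBS (2.53 ± 0.67, edgeR adjusted p = 0.027, 0.487% of all genes), and Pclaf (1.89 ± 0.49, adjusted p = 0.03) and Mcm6 (1.08 ± 0.3, adjusted p = 0.046) were higher than in mono-IL10 (0.0975% of all genes). These calls were lost after thinning, those against mono-IL10 were also lost with no filter on low counts, and DESeq2 gave 0 of the 28 members an adjusted p in either comparison. DESeq2's own estimates for Pclaf were 2.22 ± 1.37 from PBS and 2.22 ± 1.33 from mono-IL10 (DESeq2 unadjusted p = 0.106 and 0.094). For Mcm6 its estimate was 1.17 ± 0.34 from mono-IL10 (DESeq2 unadjusted p = 0.000548). Cdc45, Cdc6, Chaf1b, Gins1, Gins2, Rrm2 and Ung, with 4 to 12 UMIs each, were below the count limit.

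Pclaf in non-cycling NK cells was at 0 in 4 PBS mice and 0.513 in another, at 0 in 3 mono-IL10 mice and 0.523 in the first, and at 0.833, 0.219, 0.351, 0.513 and 0.452 in IL10/2-Trikine mice. It was detected in all 5 IL10/2-Trikine mice and in 1 mouse of each other group. Mcm6 was at 2.67, 1.11, 0.741, 0.215 and 1.03 in PBS mice, 0.392, 0.952, 0.247 and 0.645 in mono-IL10 mice and 0, 1.42, 0.702, 1.03 and 1.58 in IL10/2-Trikine mice, and its groups overlapped. In mono-IL10 against PBS 0 members passed (edgeR, 0.402% of all genes in either direction, 2 members at an unadjusted p under 0.05, and 0 with DESeq2, which gave 7 of the 28 an adjusted p).

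The share of cells with at least 1 UMI at equal depth gave the same order for Pclaf. It was 6.0 to 18.5% of T cells in PBS mice, 9.38 to 20.2% in mono-IL10 and 30.8 to 47.4% in IL10/2-Trikine, and 0 to 7.14%, 0 to 3.85% and 9.23 to 16.1% of NK cells. Without the NK-like cells the T cell shares were 4.17 to 13.9%, 6.45 to 19.8% and 18.2 to 36.7%. In naive T cell clusters, which should lack it, Pclaf was seen in 0 of 39 PBS cells (counting error alone leaves room for as much as 7.69%) and 1 of 149 mono-IL10 cells, and in neutrophils in 2 of 234 and 3 of 437. No IL10/2-Trikine mouse had enough naive T cells, and of its neutrophils, 26 cells of 2 mice, 1 held Pclaf. Over all members those 2 mice stood at 6.06 and 10.2 UMIs per 10000 in neutrophils, above the 2.99 to 4.35 of the PBS mice and the 3.25 to 4.76 of the mono-IL10 mice. In these 26 neutrophils, which should not divide, the level was thus also higher in the IL10/2-Trikine library. Their mitosis genes stood at a mean of 4.06 UMIs per 10000, against 0.805 in PBS and 1.42 in mono-IL10. Means of PBS and IL10/2-Trikine were 3.78 and 8.14 in neutrophils, 11.5 and 20.3 in NK cells and 18.1 and 40.8 in T cells. In UMIs per 10000 the neutrophil difference was smaller than the other 2. As a ratio it was larger than that in NK cells and near that in T cells. The part of this rise in the T cell and NK cell differences was not tested. Pcna was less selective, being seen in 0 to 33.3% of naive T cells in PBS mice and in 22.5 to 30% of T cells.

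Macrophages went the other way. Under mono-IL10, 29 of 35 members were lower than under PBS and 0 higher (9.08% of the 16613 genes tested were lower), with a median log2 difference of -0.83 against -0.02 over all genes. After thinning to equal depth 18 of the 35 were lower and 0 higher, all 18 among the 29 (5.17% of all genes were lower then). All 35 differences were below 0, from -1.64 for Rrm2 to -0.08 for Rfc2, and Mcm4, Cdc6, Rfc2, Rfc5, Pold1 and Slbp did not pass. By role, 9 of 11 helicase genes, 9 of 12 clamp and polymerase genes, both flap and nick genes, all 5 nucleotide genes and 4 of 5 genes of chromatin and other steps fell.

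Prim1, the primase subunit, had the smallest p. It was at 0.0925, 0.0924, 0.0505, 0.0766 and 0.0982 UMIs per 10000 in PBS mice, 0.0223, 0.0395, 0.0296, 0.0346 and 0.0194 in mono-IL10 mice and 0.0632, 0.0847, 0.0358, 0.0769 and 0.044 in IL10/2-Trikine mice. The mono-IL10 mice lay below all PBS mice, and IL10/2-Trikine overlapped both, with a log2 difference of -1.37 ± 0.2 for mono-IL10 from PBS (edgeR adjusted p = 2.58e-05).

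Rrm1 was at 0.531, 0.355, 0.492, 0.405 and 0.439 in PBS mice, 0.236, 0.138, 0.201, 0.187 and 0.233 in mono-IL10 mice and 0.362, 0.248, 0.179, 0.205 and 0.22 in IL10/2-Trikine mice (log2 difference -1.06 ± 0.15 for mono-IL10 from PBS, edgeR adjusted p = 8.93e-05). Lig1 was at 0.446, 0.238, 0.341, 0.29 and 0.331 in PBS mice, 0.152, 0.204, 0.177, 0.152 and 0.129 in mono-IL10 mice and 0.233, 0.212, 0.125, 0.205 and 0.132 in IL10/2-Trikine mice (-0.93 ± 0.13, adjusted p = 4.17e-05). For Lig1 both treated groups lay wholly below PBS, IL10/2-Trikine by only 0.233 against 0.238 in 1 draw of the thinning. For Rrm1 the mono-IL10 group lay wholly below PBS.

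Mcm3, a ring subunit, was at 0.483, 0.256, 0.46, 0.541 and 0.331 in PBS mice, 0.214, 0.23, 0.177, 0.214 and 0.174 in mono-IL10 mice and 0.249, 0.351, 0.323, 0.244 and 0.229 in IL10/2-Trikine mice (-0.89 ± 0.14, edgeR adjusted p = 0.000251). Chaf1a was at 0.0378 to 0.0766 in PBS, 0.0138 to 0.0579 in mono-IL10 and 0.0128 to 0.0423 in IL10/2-Trikine (-0.97 ± 0.17, adjusted p = 0.000166). Mcm3 separated mono-IL10 from PBS in every mouse and Chaf1a did not.

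Under IL10/2-Trikine 10 of 35 members were lower in macrophages than under PBS and 0 higher (6.95% of all genes were lower), with a median log2 difference of -0.53. They were Cdt1 (-0.44 ± 0.11), Mcm3 (-0.65 ± 0.16), Pola1 (-0.85 ± 0.15), Pcna (-0.41 ± 0.09), Lig1 (-0.79 ± 0.15), Tyms (-0.83 ± 0.2), Rrm1 (-0.67 ± 0.17), Tk1, the thymidine kinase gene (-0.82 ± 0.22), Chaf1b (-0.78 ± 0.23) and Chaf1a (-0.63 ± 0.2), at edgeR adjusted p from 0.000887 to 0.037. After thinning to equal depth 7 were lower (4.71% of all genes), 6 of them among these 10. Among macrophages with at least 2000 detected genes, 0 members passed in this comparison (7.85% of all genes in either direction), and the summed level was 10.4 in PBS, 8.06 to 12.2 by mouse, against 9.99 in IL10/2-Trikine, 6.58 to 13.3 by mouse, so these groups overlapped throughout. The mono-IL10 mice with this filter lay at 4.98 to 6.26, below every mouse of both. The IL10/2-Trikine library is the one with the fewest UMIs per macrophage, and this filter kept 672 of its 4761 macrophages, 28 in 1 mouse, against 3945 of 7102 in PBS and 3731 of 5632 in mono-IL10.

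Against mono-IL10 2 members were higher under IL10/2-Trikine in macrophages (3.27% of all genes), Prim1 by 0.79 ± 0.25 and Fen1 by 0.45 ± 0.14 (edgeR adjusted p = 0.048 and 0.035), which became 0 without any 1 of mono-IL10 mice 2 to 5 or IL10/2-Trikine mice 1 and 2. Among cells with at least 2000 genes 18 were (5.33% of all genes), and for mono-IL10 against PBS 30 were lower (9.59%), 29 of them shared with the count over all macrophages. This filter thus moved the counts between IL10/2-Trikine and either other group by more than that between mono-IL10 and PBS, where it added 1 member, Pold1.

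Cells with at least 5 member UMIs at equal depth made up 4.0 to 9.23% of macrophages in PBS mice, 1.04 to 3.14% in mono-IL10 and 1.45 to 4.34% in IL10/2-Trikine. PBS and mono-IL10 did not overlap. The macrophage clusters also differed in size between treatments. The cluster led by Cx3cr1, Hpgds and Blnk held 19.3% of PBS macrophages and 5.91 and 2.04% of mono-IL10 and IL10/2-Trikine macrophages, that led by Nrg1, Lpar1 and Acss1 held 5.87, 23.8 and 6.05%, and that led by Pf4, Arg1 and Ccl24 held 8.31, 10.5 and 25.9%.

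Within clusters, where levels were taken from all UMIs without thinning, the mono-IL10 means were lower as well. Of the 11 macrophage clusters with at least 3 mice in both groups, the mean level was lower under mono-IL10 than under PBS in all 11, and in 5 every mono-IL10 mouse was below every PBS mouse. In the cluster led by Cx3cr1, Hpgds and Blnk the level was 13.1 in PBS and 8.38 in mono-IL10, and in that led by Cd163, Ccl7 and Pf4 the means of PBS, mono-IL10 and IL10/2-Trikine were 10.4, 4.63 and 7.03. Under IL10/2-Trikine the mean was below PBS in 9 of 9 clusters, with overlap in each. The summed macrophage marker list stood at 236, 256 and 261 UMIs per 10000 and the tumor list at 0.608, 0.505 and 0.964 for PBS, mono-IL10 and IL10/2-Trikine, and the part of cluster makeup and depth in these results was not tested further.

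**Figure D3:**
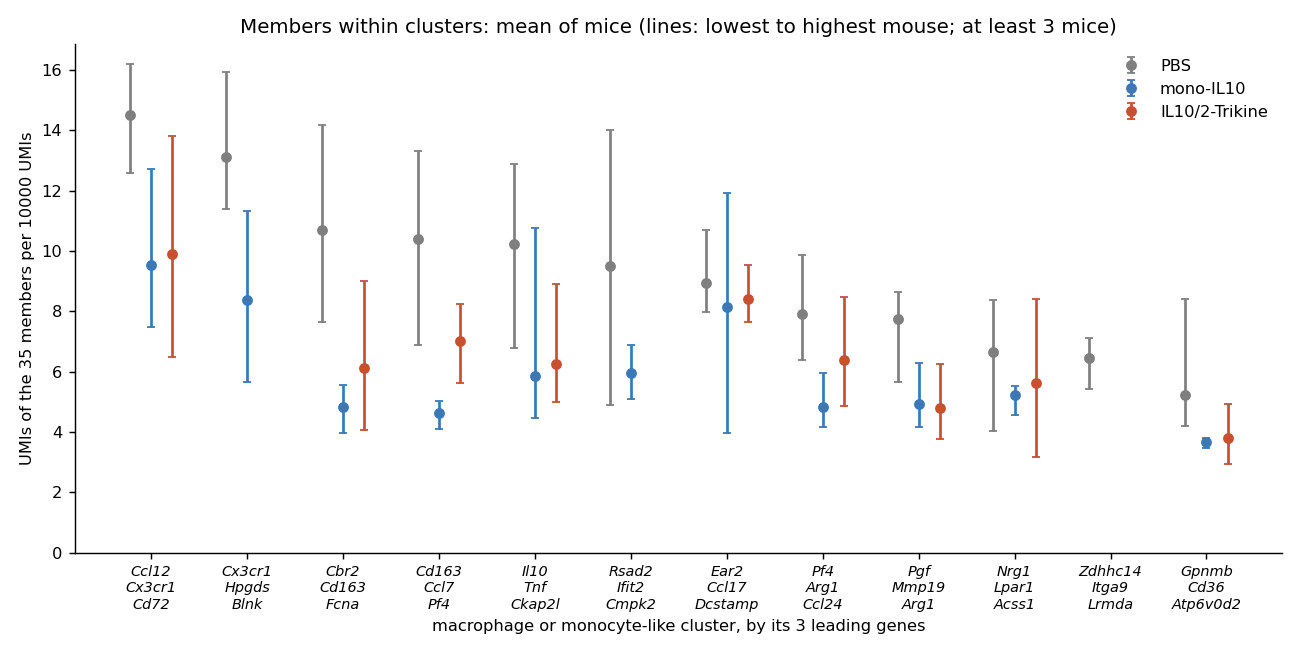
Mean summed level of the 35 members in UMIs per 10000 UMIs (y axis, from 0) in macrophage or monocyte-like clusters named by their 3 leading genes (x axis), with lines from the lowest to the highest mouse, shown where at least 3 mice had enough cells. Levels were taken from all UMIs, without thinning. PBS lies highest in every cluster in which 2 or more groups are shown, as in the cluster led by Cx3cr1, Hpgds and Blnk (13.1 against 8.38 in mono-IL10).

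In tumor epithelial-like cells the differences were small. Under IL10/2-Trikine 8 of 35 members were lower than under PBS and 0 higher (8.04% of the 20018 genes tested were lower), with a median log2 difference of -0.14. They were Gins2 (-0.37 ± 0.08), Gins1 (-0.34 ± 0.09), Mcm3 (-0.27 ± 0.07), Mcm4 (-0.21 ± 0.07), Mcm6 (-0.15 ± 0.04), Cdt1 (-0.23 ± 0.07), Pcna (-0.18 ± 0.05) and Tyms (-0.31 ± 0.08), 6 of them helicase genes, at edgeR adjusted p from 0.0024 to 0.033. After thinning only Tyms passed (1.84% of all genes were lower).

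Against mono-IL10 4 members were lower (12.2% of all genes were lower), Gins2, Cdt1, Pcna and Tyms, a share near that of all genes, and after thinning 2 members were higher and 1 lower (7.47% of all genes in either direction). Tyms was at 0.533, 0.502, 0.526, 0.476 and 0.395 UMIs per 10000 in PBS mice, 0.5, 0.432, 0.476, 0.55 and 0.405 in mono-IL10 mice and 0.375, 0.362, 0.44, 0.328 and 0.314 in IL10/2-Trikine mice, with 1 IL10/2-Trikine mouse inside the range of the others. Gins2 was at 0.269 to 0.388, 0.267 to 0.434 and 0.183 to 0.306, and the groups overlapped.

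Mono-IL10 against PBS gave 1 lower member in tumor cells (1.05% of all genes), Rpa1, the large subunit of replication protein A, by -0.29 ± 0.07 (edgeR adjusted p = 0.031). Rpa1 was at 0.348, 0.286, 0.331, 0.317 and 0.285 in PBS mice, 0.189, 0.239, 0.233, 0.185 and 0.171 in mono-IL10 mice and 0.292, 0.261, 0.287, 0.282 and 0.277 in IL10/2-Trikine mice. Every mono-IL10 mouse lay below every other mouse, and Rpa1 passed after thinning too (0.26% of all genes). The count became 0 without any 1 of PBS mice 1, 3 and 4 or mono-IL10 mice 2 to 5, and 4 without mono-IL10 mouse 1.

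**Figure D4:**
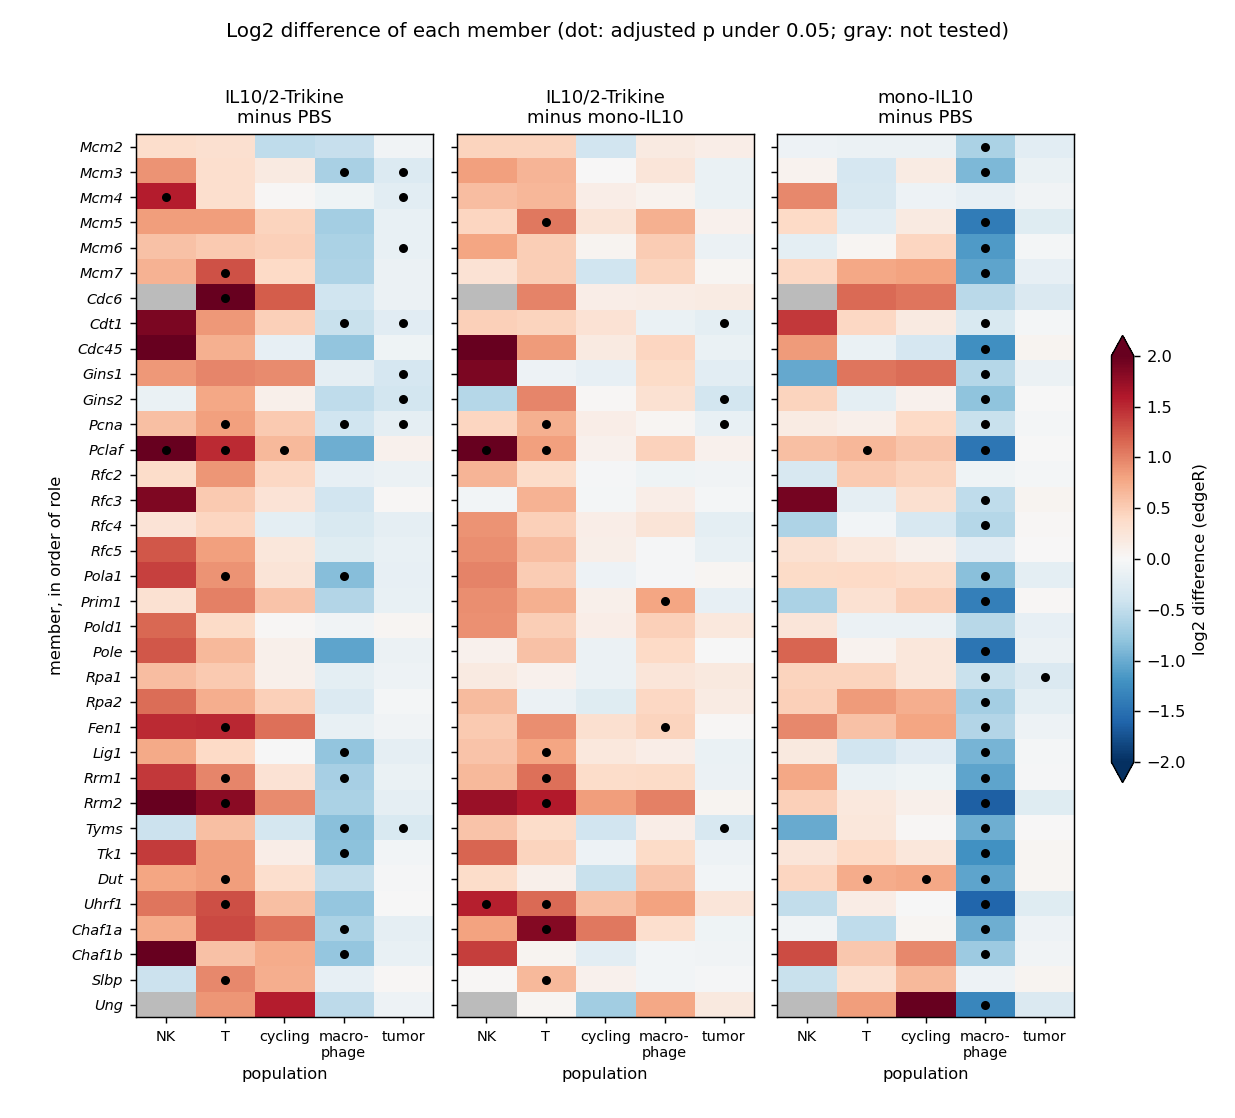
Log2 difference of each member (rows, in order of role) in 5 populations (columns) for 3 comparisons (panels), red for higher and blue for lower, with a dot where the edgeR adjusted p was under 0.05 and gray where a gene was not tested. T cells are red under IL10/2-Trikine with 11 and 9 dots, macrophages are blue under mono-IL10 with 29 dots, and tumor cells are pale. The T cells shown include the NK-like Cycling_T cells, without which 3 and 3 members passed.

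Other genes of the pathway moved with the members in part. In T cells under IL10/2-Trikine, 9 of 52 other replication genes tested were higher than in PBS and 6 than in mono-IL10, with 0 lower in both (1.14 and 1.26% of all genes were higher), among them Clspn, a fork checkpoint mediator (1.48 and 1.01), Atad5, an unloader of PCNA (1.47 and 0.95), and Nme1, a nucleoside diphosphate kinase (1.23 and 0.92). Of 19 G1/S control genes 1 was higher in each, E2f8 against PBS (2.12) and Myb against mono-IL10 (1.58). Of 22 mitosis genes 5 and 3 were higher, including Top2a (0.59 and 0.64) and Kif11 (0.99 and 1.01). Without the NK-like Cycling_T cells most of these calls were lost. Of 51 other replication genes 1 was then higher than in PBS, Nme1, and 0 than in mono-IL10 (edgeR, 11 and 7 at an unadjusted p under 0.05), of the mitosis genes 0 and 0 (1 and 0), and of the G1/S genes 0 and 2, Ccnd2 and Myb (4 and 8).

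In NK cells the mitosis genes gave more calls than the members, 7 and 5 of 13 tested out of 22 (1.03 and 0.363% of all genes were higher). Top2a was higher by 2.19 and 1.54 on the log2 scale and Mki67 by 2.54 over PBS. Meanwhile 0 of 44 other replication genes and 0 of 14 G1/S genes passed (edgeR, 7 and 5 and 4 and 4 at an unadjusted p under 0.05). Cycling_NK held 3, 9 and 30 cells for PBS, mono-IL10 and IL10/2-Trikine. Outside it 6 mitosis genes were tested and 0 passed in either comparison (edgeR, 2 and 3 at an unadjusted p under 0.05, with 0.487 and 0.0975% of all genes higher). In macrophages under mono-IL10, 28 of 54 other replication genes, 7 of 19 G1/S genes and 22 of 22 mitosis genes were lower than in PBS and 1, 2 and 0 higher, where 9.08% of all genes were lower. The 2 higher G1/S genes (10.5%, near the 9.1% of all genes that were higher) were the cyclin-dependent kinase inhibitors Cdkn1a (0.38) and Cdkn1b (0.44). Under IL10/2-Trikine 10, 2 and 11 were lower and 0, 2 and 0 higher, where 6.95% of all genes were lower and 5.55% higher. The G1/S count in each direction (10.5%) was thus not far from the share of all genes, and its 2 higher genes were Myc (0.52) and Ccnd3 (0.82). In the cycling clusters at most 1 gene of any list passed. In tumor cells under IL10/2-Trikine, 9 of 54 other replication genes and 2 of 22 mitosis genes were lower than in PBS, with 3 and 0 higher, where 8.04% of all genes were lower and 6.27% higher. The 2 mitosis genes (9.09%) and the 3 higher replication genes (5.56%) were near those shares.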

How the data were processed

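The authors aligned the reads to GRCm39 with Cell Ranger 9.0.1 and deposited raw UMI counts per gene and cell, with hashtag counts, plus their annotation of T and NK cells made with Seurat 5.1.0, per the labels. The study's filters were applied, a minimum of 1000 genes and a mitochondrial share of up to 10%. Annotated T and NK cells kept the mouse given by the authors, and the mice of other cells were called from hashtags with HTODemux (Seurat 5.3.0, quantile 0.99). HTODemux gave the authors' call to 481 of 516, 833 of 843 and 698 of 725 annotated cells of PBS, mono-IL10 and IL10/2-Trikine, and another mouse to 0. Other cells were grouped by k-means (60 clusters, 40 components, scikit-learn 1.9.0) without cell cycle genes. Counts were summed per mouse with at least 10 cells (5 in the cycling clusters) and fitted with edgeR 4.0.16 (TMM, robust quasi-likelihood, mean count at least 1), Benjamini-Hochberg over all genes. The SE given with edgeR is the absolute log2 difference divided by the square root of its F statistic. Intervals were built from this SE with a normal quantile, so both are approximate. DESeq2 1.42.0 was an alternative. The members, lists and rules were chosen with earlier results of these data known. In each comparison with at most 12 calls all are named, otherwise the smallest p per role, plus the largest p per role, of which examples are given. The test was checked on simulated counts with 200 changed genes. The 7858 annotated cells of an unlisted group were not used.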

Additional observations from a re-analysis of the deposited data

Results flagged for a closer look

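Among 110 groups of mice checked, 10 held a mouse far from the rest of its group, where chance gives about 1 in 20. In NK cells these were the highest PBS mouse for Gins2 (0.333 UMIs per 10000) and for Rrm2 (0.278), the highest mono-IL10 mouse for Gins2 (0.190), and among IL10/2-Trikine mice the highest for Mcm5 (1.73) and the lowest for Tyms (0). In T cells the highest PBS mouse for Gins2 (0.494) stood apart. In non-cycling NK cells Pclaf stood apart in 1 PBS mouse (0.513) and 1 mono-IL10 mouse (0.523), and in non-cycling T cells in 1 mono-IL10 mouse (0.230), where the summed level of the members also stood apart in 1 PBS mouse (15). In NK cells 1 UMI stood for 0.215 to 0.667 UMIs per 10000 in a PBS mouse and 0.121 to 0.19 in a mono-IL10 mouse. The Gins2 and Rrm2 values in NK cells are thus of the size of 1 UMI, as is the Pclaf value of the PBS mouse.

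Lig1 under IL10/2-Trikine against PBS differed in opposite directions at equal depth. The means differed by 0.973 UMIs per 10000 in T cells and by -0.148 in macrophage or monocyte-like cells, with no overlap between the mice of the treatments in either. The gap between the nearest mice was narrow in both and rests on 1 draw of the thinning. In T cells Lig1 did not pass the test (edgeR log2 difference 0.4 ± 0.23, adjusted p = 0.46, and 0.19 ± 0.28 without the NK-like cells), and the difference between the populations was not tested.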

How the results depend on the processing

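DESeq2 gave no adjusted p to most members in NK cells and in non-cycling NK and T cells, so that its counts of 0 there, and of 1 in non-cycling T cells for IL10/2-Trikine minus mono-IL10, are not lost calls. Of the other 209 counts and levels recomputed, 141 stayed within 1.5 times or 1 SD. The cause of the moves below was not tested.

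In NK cells, IL10/2-Trikine minus PBS (2) became 0 with DESeq2 (no adjusted p for either), 1 with edgeR's filterByExpr, 1 with at least 20 cells per mouse and 5 with the NK-like cells added, and IL10/2-Trikine minus mono-IL10 (2) became 0 with DESeq2, 1 with no filter, 1 with filterByExpr, 1 after thinning and 8 with the NK-like cells. In T cells the counts of 11 and 9 became 3 and 3 without the NK-like cells, and 1 and 0 when those cells were left out and the rest thinned. Mono-IL10 minus PBS (2) became 1 with DESeq2, 1 with RLE factors, 1 with at least 20 cells, 0 after thinning and 0 without NK-like cells and thinned. The alternatives with NK-like cells added, or left out together with thinning, were chosen after seeing the data, as were the other gene lists without NK-like cells and the rule that took 1 cluster out of the macrophages.

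In the cycling clusters, IL10/2-Trikine minus PBS (1) became 0 with DESeq2, no filter, filterByExpr, thinning, at least 10 cells, no NK-like cells and Cycling_T alone. Mono-IL10 minus PBS (1) became 0 with DESeq2, RLE, filterByExpr, thinning, no NK-like cells and Cycling_T alone, and IL10/2-Trikine minus mono-IL10 (0) became 1 with RLE and 1 with filterByExpr. In non-cycling NK cells, IL10/2-Trikine minus PBS (1) became 0 with DESeq2, filterByExpr and thinning, and IL10/2-Trikine minus mono-IL10 (2) became 0 with DESeq2, no filter and thinning and 1 with filterByExpr. In non-cycling T cells, IL10/2-Trikine minus PBS (1) became 0 with DESeq2, no filter, filterByExpr, thinning and at least 20 cells, and IL10/2-Trikine minus mono-IL10 (1) became 2 with RLE and 0 with no filter, filterByExpr, thinning and at least 20 cells.

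In macrophages, IL10/2-Trikine minus PBS (10) became 0 in cells with at least 2000 genes, IL10/2-Trikine minus mono-IL10 (2) became 1 after thinning and 18 with at least 2000 genes, and mono-IL10 minus PBS (29) became 18 after thinning. In tumor cells, IL10/2-Trikine minus PBS (8) became 1 after thinning and 3 without mixed droplets (at least 2 UMIs of the macrophage list). IL10/2-Trikine minus mono-IL10 (4 lower) became 8 with DESeq2, and most calls turned to higher after thinning (3, of which 2 higher), without mixed droplets (3, of which 2 higher), without mono-IL10 mouse 1 (5, of which 3 higher) and without IL10/2-Trikine mouse 5 (5, of which 3 higher). The 4 lower members (11.4%) were near the share of all genes, of which 12.2% were lower and 10.2% higher. After thinning 7.47% of all genes passed in either direction, and shares for the other settings are not at hand. These turns are therefore not read as a result about the members. Single members that turned were Slbp in T cells, IL10/2-Trikine minus mono-IL10 without NK-like cells and thinned (-0.0254), Chaf1a in macrophages, IL10/2-Trikine minus PBS with at least 2000 genes (0.12), and Cdt1 in tumor cells after thinning, IL10/2-Trikine minus PBS (0.20) and minus mono-IL10 (0.083).

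Leaving out 1 mouse at a time gave, for IL10/2-Trikine minus PBS, minus mono-IL10 and mono-IL10 minus PBS, counts of 1 to 3, 1 to 2 and 0 to 0 in NK cells, 10 to 12, 5 to 9 (5 without IL10/2-Trikine mouse 5) and 0 to 2 in T cells, 0 to 1, 0 to 1 and 0 to 1 in cycling clusters, 0 to 1, 0 to 2 and 0 to 0 in non-cycling NK cells, 0 to 2, 0 to 2 and 0 to 0 in non-cycling T cells, 7 to 13, 0 to 3 and 26 to 31 in macrophages, and 5 to 8, 2 to 7 and 0 to 4 in tumor cells.

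Mean summed levels moved by over 1 SD as follows, in UMIs per 10000: with 2500 UMIs per cell, IL10/2-Trikine NK cells from 20.3 to 25.3, T cells from 40.8 to 48.3 and non-cycling NK cells from 14.2 to 17.4, and PBS T cells from 18.1 to 23.0. Without thinning, T cells were at 23.0 in PBS and 25.5 in mono-IL10, macrophages at 5.65 in mono-IL10, and tumor cells at 18.1 in PBS and 16.4 in IL10/2-Trikine. IL10/2-Trikine T cells were at 30.2 without the NK-like cells, and with them added NK cells were at 16.2 in PBS and 27.2 in IL10/2-Trikine. With at least 2000 genes, macrophages went from 8.71 to 10.4 in PBS and from 6.2 to 9.99 in IL10/2-Trikine (levels with NK-like cells added or this filter were also chosen after seeing the data). No paired analysis was possible because the mice of the 3 libraries share only hashtag numbers.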
